A study of Homo sapiens with 4 samples.

Results

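Transcript levels of 39 genes of fatty acid synthesis, storage and oxidation were examined in 2 human liver cancer lines. The genes were taken by symbol from a deposited table of 58174 genes, and all 39 symbols were found, each in 1 row. LM3 is a hepatocellular carcinoma line and RBE an intrahepatic cholangiocarcinoma line. Both received, with a Lipofectamine reagent, either si-FENDRR, an RNA directed at the transcript FENDRR, which encodes no protein, or the negative control si-NC, and RNA was taken after 48 h. The stated question is the effect of FENDRR on expression in primary liver cancer. All 4 groups shared the medium, the transfection reagent and the time, and each group had 1 messenger RNA library.

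Values are FPKM, fragments scaled by gene length and library size, so levels of different genes can be compared per length. The labels name no separate culture within a group, so p-values do not measure the spread between cultures. The spread between these 4 libraries may be technical. The error of a gene in the fit used here rests on 1 residual degree of freedom and, through limma, on the variances of all genes tested. A transfection response that differs between the lines counts as error there. FENDRR itself was listed at 0 in all 4 libraries, so its depletion could not be checked and the libraries are compared by label. The hepatocyte markers were present only in part in LM3: ALB was at 35.7 and 33.3 FPKM, while SERPINA1 was at 0.0957 and 0.0892 there but at 56.8 and 82.5 in RBE. Summed over 12 hepatocyte markers the range was 234 to 235 in LM3 and 168 to 208 in RBE, and over 10 biliary markers 1107 to 1291 and 1571 to 1614. SPP1 gave most of the biliary sum in LM3, at 1118 and 909 FPKM beside 515 and 504 in RBE. RBE had the biliary markers KRT7 (429 and 391 FPKM) and EPCAM, and CFTR was near 0 at 0.0207 and 0.0228. Of 6 fat cell markers, ADIPOQ, LEP and FABP4 were listed at 0 in all libraries, and the summed level was 16.9 to 20.1 FPKM in LM3, most of it CIDEC, and 1.81 to 1.99 in RBE, most of it CFD. Among 6 fibroblast and 6 leukocyte markers, COL1A2 was at most 0.00795 FPKM and PTPRC at most 0.130, but others were present. LUM (28.4 and 24.9 FPKM) was seen in LM3 and listed at 0 in RBE, CD68 (60.1 and 62.2) was higher there than in RBE (14.2 and 13.9), and LYZ (12.7 and 12.5), COL1A1 (2.94 and 2.45) and PDGFRB (1.98 and 1.40) were seen in RBE. The part of such markers in the results was not tested.

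In the cytosol, ACLY makes acetyl-CoA from citrate, acetyl-CoA carboxylase turns it into malonyl-CoA, and FASN builds palmitate from both. Desaturases and elongases then modify the chain, ACSL enzymes attach coenzyme A, and the acyl-CoA is either esterified to triglyceride for lipid droplets and lipoproteins or carried by the CPT system into mitochondria for beta-oxidation. The liver does all of these, under control of SREBP-1, MLXIPL and the PPAR nuclear receptors.

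Both lines expressed most of the pathway, at different levels. Differences between lines are given throughout as LM3 minus RBE on the log2(FPKM + 1) scale. In a limma fit over 15930 genes on log2(FPKM + 1), with a term for line and a term for transfection, 27 of 38 tested members were called between LM3 and RBE at an adjusted p of 0.05, 15 toward LM3 and 12 toward RBE. Without the RBE si-NC library, 7 were called toward RBE. The same fit called 58.7% of all genes tested, 32.3% higher in LM3 and 26.4% higher in RBE. FABP1 was not tested, because it did not reach an FPKM of 1 in any library. CD36, MTTP and PPARGC1A reached it in 1 line only and had to differ, so no p is given for them. Among genes at 1 FPKM or more in all 4 libraries, 24 of 34 members were called, beside 54.2% of all such genes (30.4% toward LM3, 23.8% toward RBE). The lines did not overlap in 33 of the 39 members, 18 with both LM3 libraries above both RBE libraries and 15 the reverse. The 15 include FABP1, which was not tested. Of the genes tested, the lines did not overlap in 81.7% (44.3% and 37.4%).

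**Figure D1:**
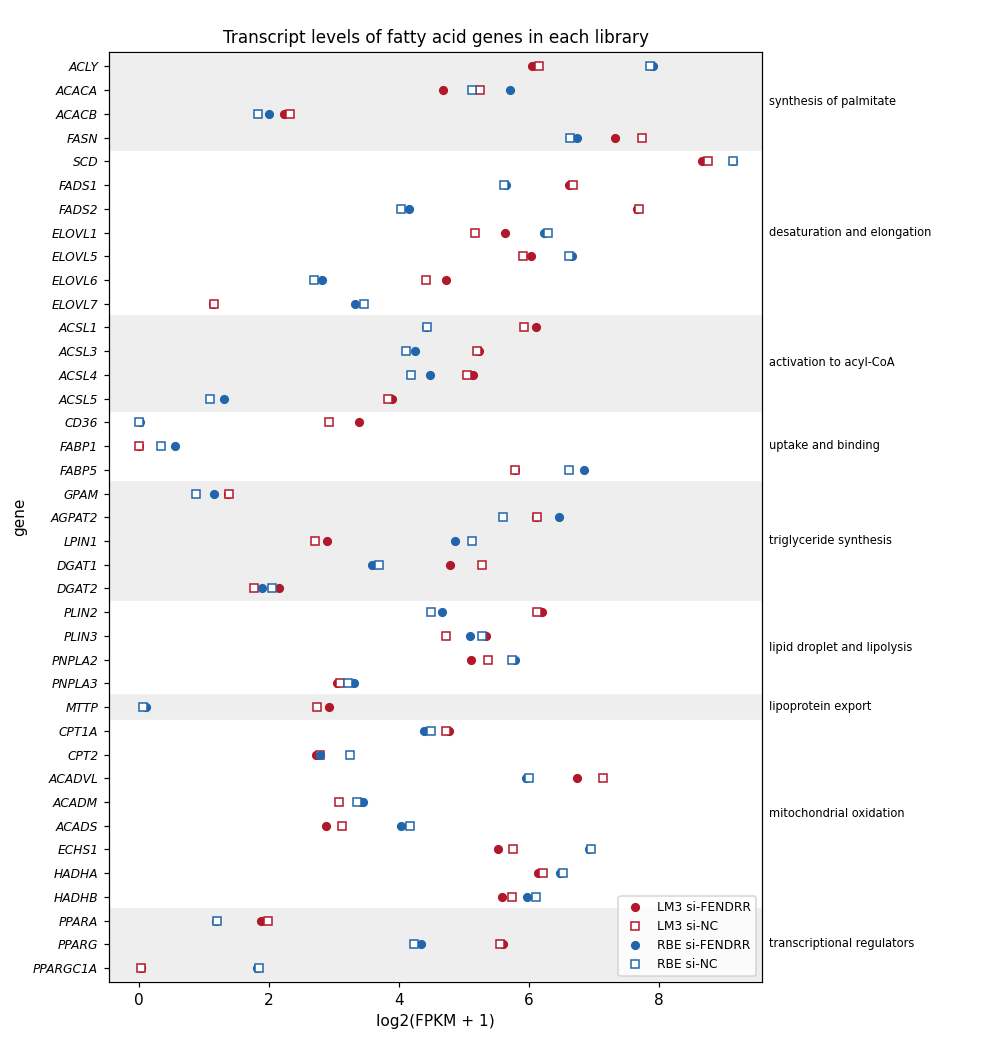
Level of each gene as log2(FPKM + 1), with 1 point per library (red for LM3, blue for RBE, circles for si-FENDRR, open squares for si-NC) and genes grouped by role. The 2 libraries of a line lie close together for most genes, and FADS2, CD36, MTTP, ACSL5, LPIN1 and ELOVL7 show wide gaps between the lines.

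On the log2(FPKM + 1) scale the 4 members with the largest called differences between the lines were FADS2, CD36, MTTP and ACSL5, all higher in LM3. This order depends on the pseudocount: with 0.1 in place of 1 it was CD36 (6.24), MTTP (5.27), PPARGC1A (-4.45, higher in RBE) and FADS2 (3.65). Sequences before the start sites of the first 4 are shown because their values set LM3 apart on the scale used here. They come from RefSeq on GRCh38.p14, on the plus strand and 5′ to 3′. Each is the longest stretch, within 250 bases before a listed RefSeq start, that no exon of GENCODE release 29 covers. Exons of RefSeq were not excluded. Capitals mark motifs. The files give 1 value per gene, so which start was used in these cells was not measured.

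FADS2, chr11:61816154-61816255: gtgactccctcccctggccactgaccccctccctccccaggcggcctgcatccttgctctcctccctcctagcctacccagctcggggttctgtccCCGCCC

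CD36, chr7:80638266-80638515: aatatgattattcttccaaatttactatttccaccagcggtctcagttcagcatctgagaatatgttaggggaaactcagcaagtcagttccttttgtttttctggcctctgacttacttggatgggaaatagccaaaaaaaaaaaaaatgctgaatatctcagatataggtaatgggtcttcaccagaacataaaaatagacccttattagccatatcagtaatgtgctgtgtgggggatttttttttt

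MTTP, chr4:99574574-99574706: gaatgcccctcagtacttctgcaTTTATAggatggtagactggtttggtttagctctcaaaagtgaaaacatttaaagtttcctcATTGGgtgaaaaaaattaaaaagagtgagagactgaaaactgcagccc

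ACSL5, chr10:112375955-112376197: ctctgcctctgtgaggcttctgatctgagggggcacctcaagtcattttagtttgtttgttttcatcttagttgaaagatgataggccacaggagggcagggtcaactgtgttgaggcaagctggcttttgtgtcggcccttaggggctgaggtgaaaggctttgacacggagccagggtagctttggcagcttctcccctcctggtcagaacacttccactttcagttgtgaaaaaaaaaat

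The FADS2 stretch ends in a GC box (GGGCGG on the other strand), 154 bases before the start at 61816404. The box is past the start at 61816203, so the end of this stretch lies downstream of a listed RefSeq start. The MTTP stretch holds a TATA box (TATAAA) and a CCAAT box, both on the other strand, 227 and 165 bases before the start. Both strands were searched for these 3 motifs, for the nuclear receptor core AGGTCA, for the SREBP motif TCACNCCAC and for the E-box CACGTG. Another motif searched is not reported here. Over 34943 promoter windows of 250 bases, 42.5% held the GC box, 32.0% the CCAAT box, 10.8% the TATA box and 12.1% the nuclear receptor core. Of the members, 34 had such windows, 60 in all, and 32 of these held the GC box and 9 held the nuclear receptor core. The SREBP motif was in 2 of the 60 windows, at ACSL1 and PNPLA2, and in 0.9% of all windows. The E-box was in 3 of the 60, beside 6.3% of all windows.

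Palmitate synthesis was split between the lines, with ACLY higher in RBE and FASN higher in LM3. ACLY was at 65.3 FPKM (si-FENDRR) and 70.6 (si-NC) in LM3 cells, beside 239 and 231, in the same order as in all pairs that follow, in RBE cells. The RBE libraries were 3.46-fold above LM3 in mean FPKM, and the difference was far wider than that within a line (log2 difference LM3 minus RBE of -1.78 ± 0.11 SE, n = 2 libraries per line, adjusted p = 0.0017 by limma). FASN was at 160 and 212 FPKM in LM3 against 105 and 98.0 in RBE, again without overlap (0.85 ± 0.16 SE, adjusted p = 0.0168). The ratio of ACLY to FASN was 0.407 and 0.333 in LM3 and 2.26 and 2.36 in RBE.

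The carboxylases were not called. ACACA, the main cytosolic acetyl-CoA carboxylase, was at 24.6 and 37.1 FPKM in LM3 cells, beside 51.3 and 33.8 in RBE cells, so the lines overlapped and the 95% interval of the log2 difference ran from -1.33 to 0.43. ACACB, the isoform at the mitochondrial surface, was at 3.72 and 4.00 FPKM in LM3 cells, beside 3.01 and 2.58 in RBE cells (0.36 ± 0.14 SE, adjusted p = 0.0987). The FASN call was lost without the RBE si-FENDRR library (adjusted p = 0.0984 by limma) and without the RBE si-NC library (0.119).

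Every desaturase and elongase among the members was called, 3 higher in LM3 and 4 higher in RBE. Of all genes tested, 32.3% were called higher in LM3 and 26.4% higher in RBE. FADS2, the delta-6 desaturase that starts polyunsaturated chain synthesis, was at 202 and 207 FPKM in LM3 cells, beside 16.9 and 15.4 in RBE cells. This was 12.6-fold higher in mean FPKM in LM3 (log2 difference 3.58 ± 0.11 SE, n = 2 libraries per line, adjusted p = 0.000697 by limma), the largest difference of any member on this scale, though not with a pseudocount of 0.1. FADS1, the delta-5 desaturase of the same gene cluster, differed less, at 97.4 and 102 FPKM in LM3 cells, beside 49.0 and 48.3 in RBE cells (1.02 ± 0.11 SE, adjusted p = 0.00432). The FADS2 to FADS1 ratio was thus 2.07 and 2.04 in LM3 but 0.345 and 0.320 in RBE. FADS2 (chromosome 11, 61792980 to 61867354, plus strand of hg38) spans FADS1 (61799625 to 61829318, minus strand). Their exons share 490 bases, 4.4% of those of FADS2, and the strand setting of the libraries was not given in the sources used here, so reads there cannot be assigned.

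SCD, the delta-9 desaturase that makes oleate, had the highest FPKM of all 39 members in every library, at 404 and 431 in LM3 and 561 and 561 in RBE. It was higher in RBE by a modest amount (log2 difference -0.42 ± 0.10 SE, adjusted p = 0.0267 by limma). This call was lost without the LM3 si-FENDRR (adjusted p = 0.0501), the RBE si-FENDRR (0.0912) or the RBE si-NC library (0.0935). Its paralog SCD5 was at 12.0 and 11.5 FPKM in RBE, and at 0 and 0.0139 in LM3.

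The elongases did not share a direction. ELOVL6, which lengthens palmitate to stearate, was at 25.5 and 20.4 FPKM in LM3 cells, beside 6.06 and 5.48 in RBE cells (difference of 1.82 ± 0.13 SE, adjusted p = 0.00199 by limma). ELOVL7, which acts on long saturated chains, was at 1.21 and 1.24 FPKM in LM3 cells, beside 9.04 and 10.1 in RBE cells (-2.25 ± 0.13 SE, adjusted p = 0.00154). ELOVL5, the elongase of polyunsaturated chains, and ELOVL1, that of very long chains, were both called toward RBE. ELOVL5 was at 64.5 and 59.4 FPKM in LM3 cells, beside 99.98 and 97.0 in RBE cells, and ELOVL1 at 48.4 and 35.3 beside 74.1 and 77.2, with no overlap in either. ELOVL6 supplied 18.2% and 17.5% of summed ELOVL FPKM in LM3 cells, beside 3.15% and 2.85% in RBE cells. The ELOVL1 call was lost without RBE si-FENDRR (adjusted p = 0.116) or without RBE si-NC (0.130).

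**Figure D2:**
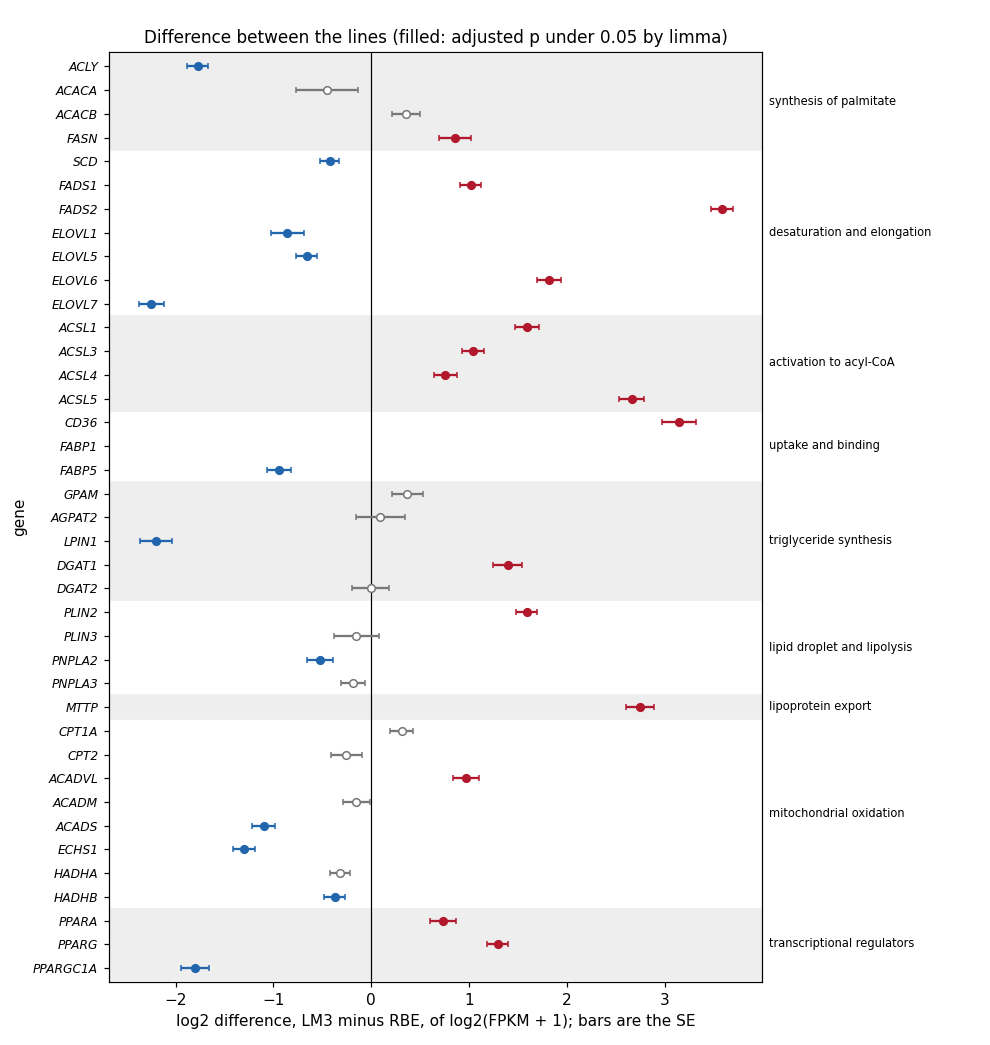
Log2 difference between the lines for the 38 tested members, LM3 minus RBE, with the standard error of limma as bars. Filled red points were called higher in LM3 (15), filled blue points higher in RBE (12), and open grey points were not called (11).

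All 4 ACSL members, which activate fatty acids by attaching coenzyme A, were called higher in LM3, beside 32.3% of all genes tested. ACSL1, the form most tied to triglyceride synthesis and oxidation in liver, was at 68.0 and 60.0 FPKM in LM3 cells, beside 20.4 and 20.6 in RBE cells. ACSL5, found on mitochondria and endoplasmic reticulum, was at 13.9 and 13.3 FPKM in LM3 cells, beside 1.49 and 1.14 in RBE cells, a 10.4-fold difference in mean FPKM (log2 difference 2.66 ± 0.13 SE, adjusted p = 0.00122 by limma). ACSL3, which acts at nascent lipid droplets, was at 36.8 and 36.0 FPKM in LM3 cells, beside 18.1 and 16.3 in RBE cells. ACSL4, which prefers arachidonate, had the smallest difference of the 4, at 34.4 and 32.0 beside 21.3 and 17.3 (0.76 ± 0.12 SE, adjusted p = 0.0106). Their sum with ACSL6 came to 153 and 141 FPKM in LM3 cells, beside 61.3 and 55.4 in RBE cells. Within that sum ACSL4 held 22.4% and 22.6% in LM3 and 34.7% and 31.2% in RBE. The ACSL4 call was lost without LM3 si-FENDRR (adjusted p = 0.0832), LM3 si-NC (0.0677) or RBE si-NC (0.0516). In these bulk libraries fewer cells with a transcript and less of it per cell cannot be told apart.

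Of the 3 uptake and binding genes, CD36 was called toward LM3 and FABP5 toward RBE. CD36, a membrane receptor that promotes fatty acid uptake, was at 9.43 and 6.60 FPKM in LM3, at 0.0118 in RBE with si-FENDRR and listed at 0 in RBE with si-NC (log2 difference 3.15 ± 0.17 SE). FABP1, the liver fatty acid binding protein abundant in hepatocytes, was listed at 0 in both LM3 libraries and was at 0.468 and 0.266 FPKM in RBE. FABP5, the epidermal type, was at 54.1 and 54.4 FPKM in LM3 cells, beside 115 and 96.7 in RBE cells (-0.95 ± 0.12 SE, adjusted p = 0.00663). FABP3, the heart type, which is not among the 39 members, was at 45.5 and 41.3 FPKM in LM3 cells, beside 0.420 and 0.137 in RBE cells. FABP5 has 13 listed pseudogenes, whose summed FPKM was 5.50 to 11.4, and how reads that fit several of them were counted was not given in the sources used here.

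In triglyceride synthesis, DGAT1 was higher in LM3, LPIN1 higher in RBE, and the other 3 members were not called. LPIN1, a phosphatidate phosphatase, was at 6.44 and 5.53 FPKM in LM3 cells, beside 28.2 and 34.0 in RBE cells, 5.20-fold higher in RBE (difference of -2.20 ± 0.16 SE, adjusted p = 0.00222 by limma). Its paralogs went the other way: LPIN2 was at 23.7 and 23.8 FPKM in LM3 cells, beside 6.79 and 6.88 in RBE cells, and LPIN3 at 12.7 and 12.1 against 4.02 and 3.25. Summed LPIN FPKM was therefore close in all libraries, at 39.1 to 44.2, while LPIN1 supplied 15.0% and 13.4% of it in LM3 and 72.3% and 77.1% in RBE.

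DGAT1, which adds the last acyl chain, was at 26.7 and 37.96 FPKM in LM3 cells, beside 11.1 and 11.9 in RBE cells (1.40 ± 0.15 SE, adjusted p = 0.00451 by limma). That call was lost without RBE si-FENDRR (adjusted p = 0.0739) or RBE si-NC (0.0685). DGAT2, the other enzyme of this step, was at 3.48 and 2.41 FPKM in LM3 cells, beside 2.73 and 3.13 in RBE cells, with a 95% interval of the log2 difference from -0.54 to 0.52. GPAM, the mitochondrial acyltransferase of the first step, stayed at 0.841 to 1.63 FPKM in all libraries. GPAT4 and GPAT3 carried most of that family, GPAT3 with 40.0% and 39.7% of it in LM3 and 8.85% and 13.0% in RBE. AGPAT2, the acyltransferase of the next step, was at 68.4 and 69.2 FPKM in LM3 cells, beside 87.2 and 47.4 in RBE cells, so the LM3 libraries lay between the RBE ones. Without RBE si-FENDRR, GPAM (adjusted p = 0.0495) and AGPAT2 (0.0449) were called higher in LM3, and without RBE si-NC the log2 difference of AGPAT2 was -0.34.

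**Figure D3:**
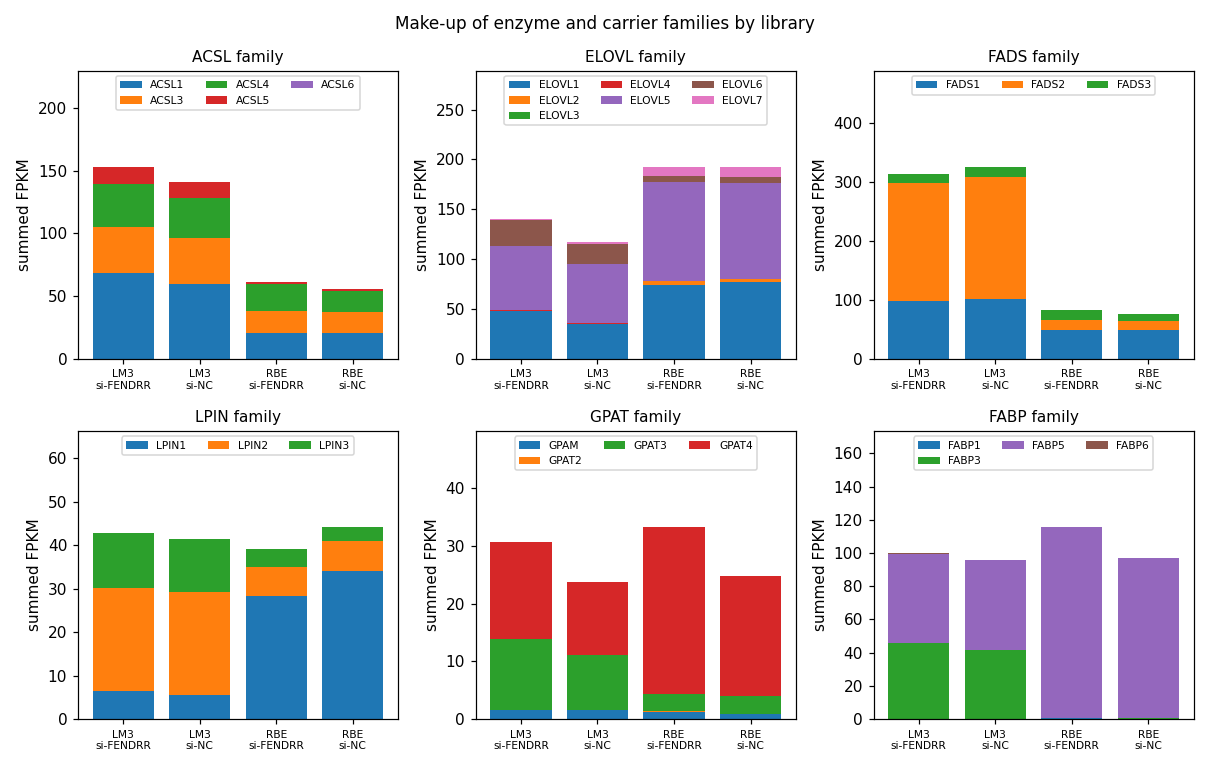
Summed FPKM of 6 gene families in each library, stacked by gene, with FPKM on an axis from 0. FADS2 dominates its family in LM3 and FADS1 in RBE, LPIN2 and LPIN3 lead in LM3 and LPIN1 in RBE, and FABP3 appears in LM3 beside FABP5. Genes under 0.05 FPKM in every library are not drawn.

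On lipid droplets, PLIN2, a coat protein that tracks stored triglyceride in liver, was at 72.7 and 68.7 FPKM in LM3 cells, beside 24.3 and 21.5 in RBE cells (difference of 1.59 ± 0.11 SE, adjusted p = 0.0020 by limma). PNPLA2, the lipase that opens triglyceride breakdown, was at 33.5 and 40.3 FPKM in LM3 cells, beside 54.2 and 52.3 in RBE cells, higher in RBE (-0.52 ± 0.13 SE, adjusted p = 0.0337). The PLIN2 to PNPLA2 ratio was 2.17 and 1.71 in LM3 and 0.448 and 0.411 in RBE. PLIN3, a coat protein that moves onto droplets from the cytosol, was at 39.6 and 25.5 FPKM in LM3 cells, beside 33.3 and 37.8 in RBE cells, and was not called. PLIN3 shares 17.8% of its exon bases with AC027319.1 on the opposite strand, which was at most 0.0216 FPKM. PNPLA3, a lipase-like droplet protein of hepatocytes, was at 7.28 to 8.93 FPKM in the 4 libraries (-0.19 ± 0.13 SE, adjusted p = 0.265). The PNPLA2 call was lost without LM3 si-FENDRR (adjusted p = 0.0504), RBE si-FENDRR (0.135) or RBE si-NC (0.120).

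MTTP loads triglyceride onto apolipoprotein B for export. It was at 6.59 and 5.73 FPKM in LM3 cells, beside 0.0801 and 0.0450 in RBE cells (difference of 2.75 ± 0.14 SE). APOB, its partner, was at 0.343 and 0.313 FPKM in LM3 and listed at 0 in RBE. TM6SF2 and APOC3 were listed at 0 in all 4 libraries.

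Of the 8 genes of mitochondrial oxidation, 1 was called toward LM3 and 3 toward RBE, beside 32.3% and 26.4% of all genes tested. The first step at the membrane did not pass: CPT1A, which makes acylcarnitine and is blocked by malonyl-CoA, was at 26.4 and 25.5 FPKM in LM3 cells, beside 19.8 and 21.6 in RBE cells (0.31 ± 0.12 SE, adjusted p = 0.0895 by limma). CPT2, on the inner membrane, was at 5.65 and 5.94 FPKM in LM3 cells, beside 5.88 and 8.52 in RBE cells. The dehydrogenases did not share a direction. ACADVL, for very long chains, was higher in LM3 at 106 and 140 FPKM against 60.9 and 62.8 (0.97 ± 0.14 SE, adjusted p = 0.0080). ACADS, for short chains, was higher in RBE at 15.3 and 17.1 FPKM against 6.36 and 7.73 (-1.10 ± 0.12 SE, adjusted p = 0.00461). ACADM, for medium chains, was at 9.74 and 7.43 in LM3 and 9.90 and 9.24 in RBE and was not called.

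Of the 3 genes for the later steps, 2 were called, both higher in RBE, beside 26.4% of all genes tested. ECHS1, the short-chain hydratase, was at 45.1 and 53.3 FPKM in LM3 cells, beside 121 and 124 in RBE cells (difference of -1.30 ± 0.12 SE, adjusted p = 0.00313 by limma). HADHA and HADHB, the subunits of the trifunctional protein, were at 69.7 and 73.8 FPKM and at 47.3 and 52.3 in LM3 cells, beside 87.9 and 91.6, and 61.9 and 67.8, in RBE cells. The RBE means were 1.25-fold and 1.30-fold those of LM3, and only HADHB passed (adjusted p = 0.0621 and 0.0441). They lie on opposite strands of chromosome 2 with overlapping starts, and their ratio was 1.35 to 1.47 in the 4 libraries. The ACADVL call was lost without RBE si-FENDRR (adjusted p = 0.0892) or RBE si-NC (0.0856), that of ACADS without RBE si-NC (0.0549), and that of HADHB without any 1 library (0.0680 to 0.154). HADHA was called with median-of-ratios scaling (0.0325) and without the transfection term (0.0356).

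Among the regulators, PPARG and PPARA were called toward LM3 and PPARGC1A toward RBE. PPARG, the nuclear receptor of fat storage, was at 47.8 and 45.9 FPKM in LM3 cells, beside 19.4 and 17.8 in RBE cells (difference of 1.29 ± 0.11 SE, adjusted p = 0.00293 by limma). PPARA, the receptor that drives oxidation genes in hepatocytes, was lower than PPARG in every library, at 2.69 and 2.96 FPKM in LM3 cells, beside 1.28 and 1.31 in RBE cells (0.73 ± 0.14 SE, adjusted p = 0.0156, and 0.0502 without RBE si-FENDRR). The PPARG to PPARA ratio was 13.5 to 17.8 in the 4 libraries. PPARGC1A, the coactivator of mitochondrial and oxidation genes, was at 0.0236 and 0.0207 FPKM in LM3 cells, beside 2.54 and 2.60 in RBE cells (-1.80 ± 0.15 SE).

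A further 117 genes of fatty acid metabolism were listed alongside. Of these, 90 were tested and 58 called, 28 toward LM3 and 30 toward RBE, a share of 64.4% beside 58.7% of all genes. Of the 90, 12 reached 1 FPKM in 1 line only, which favours a difference. Called among them were CREB3L3, FABP3, CIDEC, PLIN4 and MOGAT3 toward LM3, and SCD5, ELOVL2, OXCT1, SLC27A2 and LIPE toward RBE. Not called among them were PPARGC1B and PRKAA2 (adjusted p = 0.326 and 0.857 by limma). Among genes at 1 FPKM or more in all 4 libraries, 48 of 78 were called (61.5%), beside 54.2% of all such genes. The regulator SREBF1 was at 43.8 to 52.3 FPKM in all 4 libraries and was not called (adjusted p = 0.502 by limma). SREBF2, which favours sterol genes, was at 27.7 and 35.8 FPKM in LM3 cells, beside 63.5 and 79.7 in RBE cells, and RXRA, the partner of the PPARs, at 24.7 and 28.9 against 9.98 and 10.00. Those with the largest differences toward LM3 were CREB3L3, FABP3, CIDEC, G0S2 and PLIN4. CREB3L3, a membrane-bound transcription factor of liver, was at 22.9 and 54.6 FPKM in LM3 cells, beside 0.0458 and 0.0298 in RBE cells (5.14 ± 0.34 SE). The droplet protein CIDEC was at 15.6 and 17.9 FPKM against 0.560 and 0.596. G0S2, an inhibitor of PNPLA2, was at 16.5 and 20.6 against 1.78 and 1.08.

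Toward RBE the largest were SCD5, ACAA2, ELOVL2, ACOT1, OXCT1 and LIPA. ACAA2, the last enzyme of mitochondrial beta-oxidation, was at 26.9 and 13.7 FPKM in LM3 cells, beside 85.8 and 86.3 in RBE cells (difference of -2.10 ± 0.26 SE, adjusted p = 0.00605 by limma). ACAA2 shares exon bases with another gene on its strand. OXCT1, which uses ketone bodies, was listed at 0 in LM3 and was at 3.45 and 2.48 FPKM in RBE. LIPA, the lysosomal lipase, was at 23.3 and 22.9 FPKM against 74.7 and 93.4. Genes of desaturation and elongation in this list gave 5 calls toward RBE, SCD5 and ELOVL2 among them, and 0 toward LM3 among 8 tested. Those of triglyceride synthesis gave 5 toward LM3 and 2 toward RBE among 9. The 5 include MOGAT3, which reached 1 FPKM in LM3 only. Over all genes 32.3% were called toward LM3 and 26.4% toward RBE. The calls of PLIN4 and ACAA2 were lost without RBE si-FENDRR (adjusted p = 0.136 and 0.0910) or RBE si-NC (0.124 and 0.0935). The 58 calls fell to 37 without RBE si-FENDRR.

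**Figure D4:**
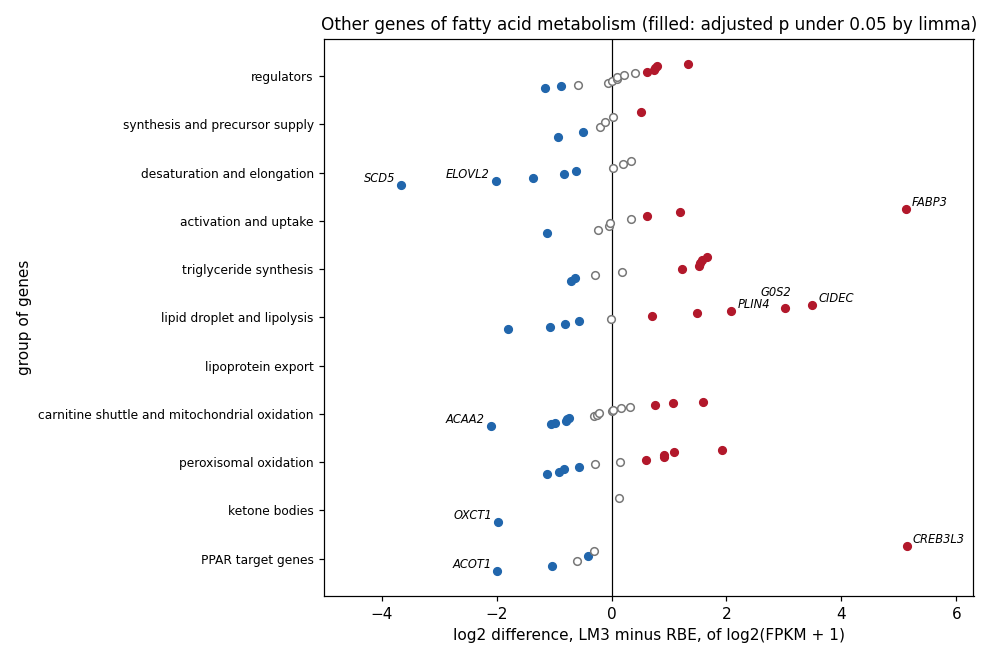
Log2 difference between the lines, LM3 minus RBE, for the 90 tested genes of the further list, grouped by role, with 1 point per gene. Filled red points were called higher in LM3 (28), filled blue points higher in RBE (30), open points were not called, and the 5 largest called differences per direction are named.

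With transfection, by contrast, no member was called over both lines. In the limma fit 0 of 38 tested members passed (smallest adjusted p = 0.959), 0 had an unadjusted p under 0.05, and 0.0% of all 15930 genes passed, with 4.12% at an unadjusted p under 0.05. Within a line there is 1 library per transfection and no test. There, 0 members differed at least 2-fold in FPKM + 1 in LM3 and 0 in RBE, beside 2.13% of all genes tested in LM3 (1.19% higher and 0.942% lower with si-FENDRR) and 1.75% in RBE (0.879% and 0.873%). The absolute log2 difference had a median of 0.11 (LM3) and 0.12 (RBE) for the members, and 0.15 and 0.14 for all genes tested. At 1.5-fold, 1 member differed in LM3 (PLIN3) and 2 in RBE (AGPAT2 and ACACA), beside 7.97% of all genes in LM3 (4.49% higher, 3.47% lower) and 6.27% in RBE (3.18% and 3.09%).

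**Figure D5:**
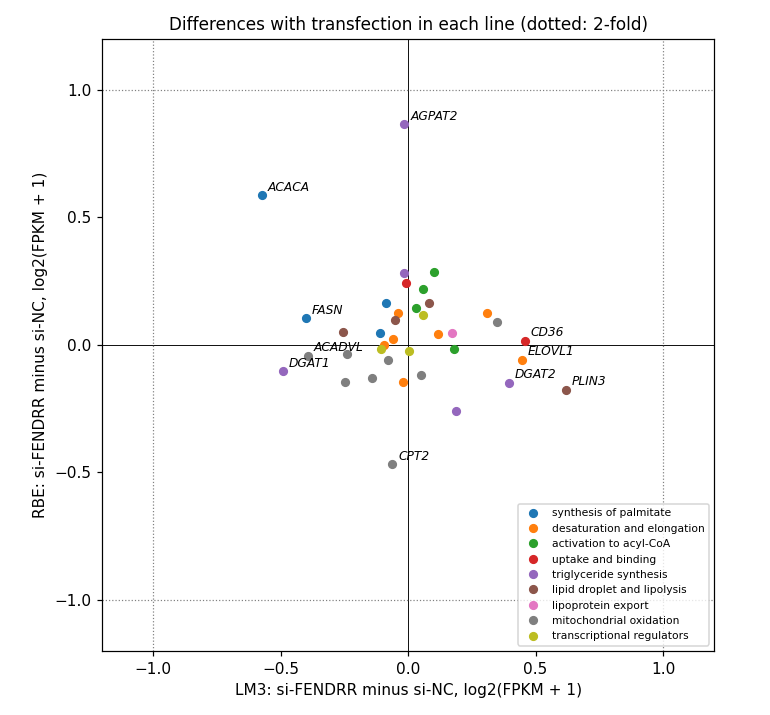
Log2 difference in FPKM + 1 between si-FENDRR and si-NC in LM3 (horizontal) and in RBE (vertical), with 1 point per tested member coloured by role and dotted lines at 2-fold. All 38 points lie inside the dotted lines, with AGPAT2 highest in RBE at 0.86, PLIN3 farthest right in LM3 at 0.62, and ACACA at -0.57 and 0.59.

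AGPAT2 differed most within a line, in RBE, at 87.2 FPKM (si-FENDRR) and 47.4 (si-NC), while the LM3 libraries were at 68.4 and 69.2. PLIN3 was at 39.6 FPKM, beside 25.5, in LM3 cells and 33.3, beside 37.8, in RBE cells. ACACA was at 24.6 FPKM, beside 37.1, in LM3 cells and 51.3, beside 33.8, in RBE cells. None of these 3 had differences of the same sign in both lines. Opposite differences of at least 1.25-fold in each line, as in ACACA, were seen in 3.22% of all genes tested. FASN was at 160 FPKM, beside 212, in LM3 cells and 105, beside 98.0, in RBE cells. All 4 genes of palmitate synthesis were lower with si-FENDRR in LM3 and higher in RBE, with median log2 differences of -0.26 and 0.13, a split seen also with equal totals and with median-of-ratios scaling. Of all genes tested, 26.9% had this pair of signs. Of 6 tested synthesis genes in the further list, 4 were lower in LM3 and 4 higher in RBE, and 2 had opposite signs in the lines. Whether the lines differ in this response was not tested, since 1 library per group leaves no error for that term.

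With si-FENDRR, 10 of the 38 members had higher values in both lines, 9 lower in both and 19 went opposite ways, beside 26.9% of all genes higher in both and 21.8% lower in both. Of the 8 genes of mitochondrial oxidation, 6 were lower in both lines, also under both other scalings, with a median log2 difference of -0.11 in LM3 and -0.09 in RBE. Of 16 further tested genes of the carnitine shuttle and mitochondrial oxidation, 6 were lower in both, 3 higher in both and 7 went opposite ways. The largest shared differences toward lower values were ACADS, HADHB, DGAT1, CPT2 and HADHA. ACADS was at 6.36 FPKM, beside 7.73, in LM3 cells and 15.3, beside 17.1, in RBE cells (-0.20 ± 0.12 SE, n = 2 lines, adjusted p = 0.959 by limma). CPT2 was at 5.65 against 5.94 in LM3 and 5.88 against 8.52 in RBE.

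Toward higher values the largest shared differences were in ELOVL6, ACSL4, ACADM, PLIN2 and ACSL5. ELOVL6 was at 25.5 FPKM, beside 20.4, in LM3 cells and 6.06, beside 5.48, in RBE cells (0.22 ± 0.13 SE, adjusted p = 0.959 by limma), and ACADM at 9.74 against 7.43 and 9.90 against 9.24. None of these 10 genes passed the threshold. In the further list 0 of 90 tested genes passed. Of the 90, 6 had an unadjusted p under 0.05 by limma, among them SREBF2, MLX, SLC25A1, GPAT4 and ACOT7, beside 4.12% of all genes tested. CREB3L3 (22.9 against 54.6 FPKM) and PLIN4 (2.79 against 7.53) differed at least 2-fold, both in LM3 and both lower with si-FENDRR. Of all genes tested, 2.13% differed 2-fold in LM3, with 0.942% lower with si-FENDRR. In RBE, PLIN4 was at 0.265 against 0.418 FPKM, and no gene of that list differed 2-fold, beside 1.75% of all genes tested.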

How the data were processed

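Messenger RNA of 4 libraries was measured, 1 per line and transfection. The deposited values are FPKM per the file headers. The tools FastQC and HISAT2 and the build hg38 are listed per the submitters' processing notes. The FPKM program, annotation, strand setting and handling of multiply matching reads were looked for, and none is given in the sources used here. No counts accompany the values. In single-exon genes only 7.7% to 11.5% of low values came within 0.02 of whole multiples of the most frequent step, so reads were not recovered, depth is unknown and no counting interval is given. The single-library files held the same values as the table.

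limma version 3.58.1 in R version 4.3.3 was run on log2(FPKM + 1), with a trended prior, over the 15930 genes that reached 1 FPKM in any library. The terms were line and transfection, with 1 residual degree of freedom and a Benjamini-Hochberg threshold of 0.05. Fold changes on this scale understate those of weakly expressed genes. Exon overlaps come from GENCODE release 29, where 96.9% of matched genes had the same start and end. Of the members, 7 share exon bases with a gene on their strand and 14 with one on the opposite strand. Members, lists and naming rules were chosen with earlier results of these data known. Named were all members, for transfection those 2-fold apart in a line and 5 per direction with the largest shared difference, and 6 per direction of the further list, of which some genes are not reported here. Genes named beyond that were chosen after their values were seen. Alternatives were 2 other scalings, pseudocounts of 0.1 and 5, other filters, a constant prior variance, fewer model terms, a 1.5-fold rule, exclusion of overlapping genes, and each library left out. Protein sequences were not used here.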

Additional observations from a re-analysis of the deposited data

Results flagged for a closer look

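ACACA and HADH differed with transfection in opposite directions in the 2 lines, by at least 1.25-fold in FPKM + 1 in each, which drew attention to them. Of all genes tested, 3.22% did so. For ACACA the log2 differences were -0.57 (LM3) and 0.59 (RBE), 1.16 apart. HADH, the 3-hydroxyacyl-CoA dehydrogenase of beta-oxidation in the further list, had 17.6 FPKM in the LM3 si-FENDRR library and 23.7 in its control, with 20.5 and 16.03 for RBE, with log2 differences of -0.41 and 0.34, 0.75 apart. In neither gene was the difference between the lines tested.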

How the results depend on the processing

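All 27 calls between the lines kept their direction under every alternative run that tested them, and 17 stayed called under each. The 17 include CD36, MTTP and PPARGC1A, which reached 1 FPKM in 1 line only and had to differ. For these genes, staying called is no measure of stability, and the filter on all 4 libraries did not test them. The other 10, FASN, SCD, ELOVL1, ACSL4, DGAT1, PNPLA2, ACADVL, ACADS, HADHB and PPARA, were lost under at least 1, and of these SCD, PNPLA2, HADHB and PPARA also with all 4 libraries in use. Without 1 library, in a fit of 3 libraries with a line term only, where the lone library of a line is assumed to vary like the other line, 18 to 25 members were called, 11 to 14 higher in LM3 and 7 to 11 higher in RBE. For the further list these were 37 to 48, 18 to 24 and 19 to 24. Limited to genes that share no exon on either strand, chosen after seeing the data, 20 members were tested and 14 called, 7 each way, and 27 genes of the further list, 15 higher in LM3 and 12 in RBE. The called shares there were 70.0% of the members tested, 55.1% of the further list and 63.7% of all genes, and the cause was not tested. Members that were not called and changed direction were AGPAT2 (leave-outs from -0.34 to 0.53), PLIN3 (-0.46 to 0.16), ACADM (-0.33 to 0.024) and DGAT2 (-0.20 to 0.19, with 0.018 for equal totals and 8.795e-05 for pseudocount 5). A 1.5-fold rule gave 1 member in LM3 and 2 in RBE. The 10 named transfection differences kept their sign, and no member was called, under every alternative that fitted a transfection term. The median line difference of all genes was 0.09, and 0.12 and 0.01 with the other scalings. The transfection term of the fit compared libraries within each line. No other pairing was possible because the labels carry no replicate numbers and each group has 1 library. Depth is unknown, which limits what can be said of values near 0.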
